A study of Arabidopsis thaliana with 12 samples.

Results

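Anthers of the ms35 mutant of Arabidopsis thaliana were compared between arrays labelled PMII, for pollen mitosis II, and arrays labelled bicellular, for pollen with a vegetative and a generative cell. The members were taken from the labels alone: 2 ms35 PMII arrays and 2 ms35 bicellular arrays, of 12 arrays in all. The remaining arrays were 2 of ms35 at pollen mitosis I (PMI), and 2 of wild type at each of PMI, bicellular and PMII. All were Affymetrix ATH1 arrays of RNA from anthers with their filaments, from plants grown at 22 °C with 22 h of light and 2 h of night. The labels describe ms35 as a gene_knock_out in the Ler-0 background. They describe the wild-type control by the source Glabra, the stock N64 and titles that name Ler, so its background relative to ms35 is not settled and a genotype difference is one between these lines. The replicate numbers 1 and 2 are not said to stand for separate plants, so the p-values cover only the spread among the arrays as labelled, and that spread may be technical.

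An anther holds the pollen and several layers of sporophytic cells around it. The tapetum, the innermost layer, feeds the microspores, supplies material for the pollen wall and coat, and then breaks down, while the pollen grains turn on a large late set of genes for germination and tube growth. In the outer endothecium, secondary thickenings of cellulose, xylan and lignin form, and the anther opens when they and the drying wall pull the lobes apart. ms35 is known for a lesion in MYB26, a transcription factor that these thickenings need, and its anthers stay closed. No probe set used here carried the name MYB26, so the level of the mutated gene was not analysed here.

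The markers ran against the usual order of the stage names. Late pollen genes, which accumulate after the pollen divisions, were lowest on average in the ms35 arrays labelled PMII and highest in those labelled PMI. Tapetal genes, which mark earlier anthers, were highest on average in the ms35 arrays labelled PMII. The mean level of 15 late pollen genes, as log2(signal + 2.23), was 6.75 and 7.17 in ms35 PMI, 5.29 and 6.51 in ms35 bicellular and 4.57 and 5.07 in ms35 PMII arrays. The mean level of 5 tapetum and pollen wall genes was 5.67 and 5.24 in PMI, 8.35 and 7.11 in bicellular and 10.25 and 9.57 in PMII arrays. Stage names are therefore used as labelled, with no order in time read from them. The mean level of 4 pollen coat genes varied less. It was 7.16 and 7.20 in ms35 PMI, 7.45 and 7.16 in ms35 bicellular and 7.65 and 7.44 in ms35 PMII arrays. Within the bicellular label the arrays were unlike each other. On the late pollen and tapetum lists replicate 2 lay nearer to the PMI arrays and replicate 1 nearer to the PMII arrays. Across tested probe sets ms35 bicellular replicate 1 correlated with ms35 PMII replicate 2 at r = 0.919, against r = 0.899 with its own replicate. RNA integrity, read from GAPDH control probes as their 3' signal over their 5' signal, gave 1.49 and 1.62 in the PMII arrays, and 1.57 and 2.37 in the bicellular arrays. The part of RNA quality in the results below was not tested. The labels give no batch.

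**Figure D1:**
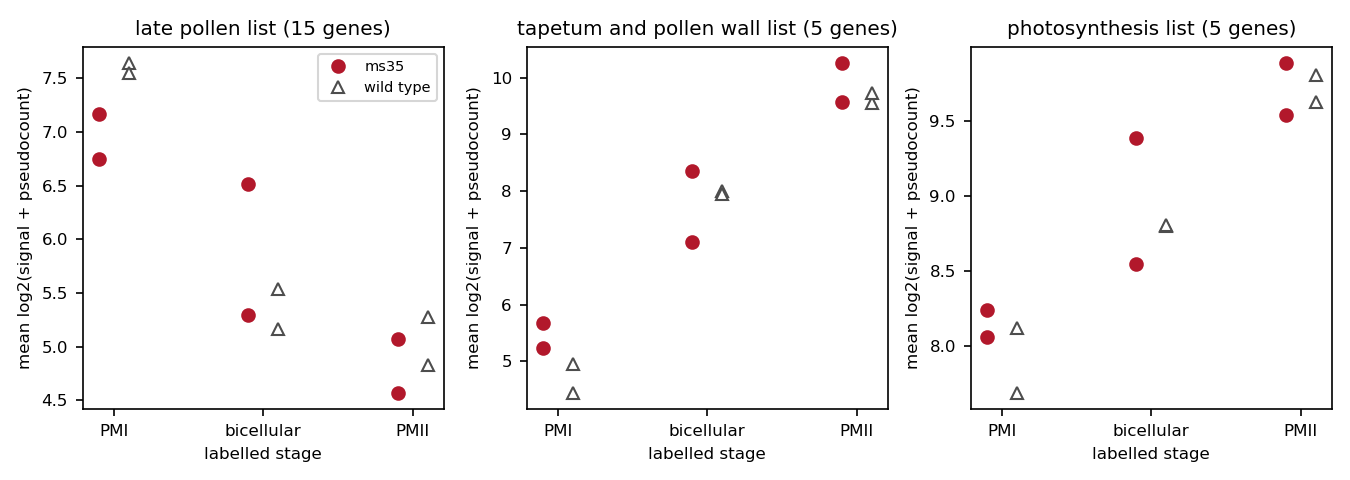
Mean log2(signal + pseudocount) of 3 marker lists in each array, 1 point an array, by labelled stage, with ms35 left of wild type. In ms35, late pollen genes run down and tapetal genes run up across the labels, and the 2 ms35 bicellular arrays lie far apart on all 3 lists.

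The genes called higher in ms35 PMII arrays were led by A9, a classical tapetum gene, and by genes with strong signal in PMII and almost none in bicellular arrays. The genes called lower included transporters, a tubulin and sugar-related enzymes named by family only. Of 16464 probe sets tested, 68 were called (0.413%), 38 higher in PMII (0.231%) and 30 lower (0.182%), by limma with Benjamini-Hochberg adjusted p under 0.05. A single gene was annotated to 35 of them, 20 higher and 15 lower, and 33 had no named gene. In all 68 the PMII and bicellular arrays did not overlap. Over all tested probe sets, both PMII arrays lay above both bicellular arrays in 23.9% and below them in 22.2%. At an unadjusted p under 0.05 there were 2673. The calls lay close to the threshold, with a median adjusted p of 0.0416 and 3 under 0.03. They also rested on few arrays: in the same model limma called 0 (1354 at an unadjusted p under 0.05) when ms35 PMII replicate 1 was left out and 508 when replicate 2 was. Leaving out ms35 bicellular replicate 1 gave 579 and leaving out replicate 2 gave 12. The count was 20 and 3 without wild type PMII replicates 1 and 2, 40 without wild type bicellular replicate 2, 7 without either wild type PMI array and 4 without either ms35 PMI array. All 68 kept their direction in each of these fits, but this could not have come out otherwise. Their ms35 groups did not overlap, and leaving out wild type or PMI arrays does not change the ms35 means.

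A9 (AT5G07230), which encodes a small secreted protein of the tapetum, had a signal of 1588 and 590 in the ms35 PMII arrays, against 24.3 and 2.45 in the ms35 bicellular arrays. Both bicellular values lay under 25.5, the limit below which signal was treated as low. Its log2 difference was 6.45 ± 0.75 (SE; limma adjusted p = 0.0108), on a scale that understates the change of dim genes. In wild type the same difference was 5.29, and the ms35 PMI arrays stood at 2.76 and 3.87. These are whole anthers, so fewer cells of a type and less RNA per cell cannot be told apart. A9 was not called without ms35 PMII replicate 1 (adjusted p = 0.287) or from the arrays compared alone (adjusted p = 0.168), within a range from 0.000203 over its alternatives.

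AT1G02813, a protein of the DUF538 family, followed closely, with 1557 and 699 in PMII arrays, against 28.9 and 4.14 in bicellular arrays (log2 difference 6.21 ± 0.88, limma adjusted p = 0.0352). AT3G57620, related to glyoxal oxidases that act on the extracellular matrix, had 704 and 228 in PMII arrays, against 12.3 and 3.67 in bicellular arrays (5.44 ± 0.82, adjusted p = 0.0359). AT4G29250, an acyltransferase of the BAHD type, had 633 and 188 in PMII arrays, against 37.3 and 3.22 in bicellular arrays (4.57 ± 0.80, adjusted p = 0.0420). In each of these 3 genes the groups lay far apart, although the arrays within a group differed several-fold. AT5G13380, of the GH3 family, which links amino acids to hormones and related acids, had 2875 and 889 in PMII arrays, against 117 and 54.7 in bicellular arrays (4.28 ± 0.58, adjusted p = 0.0339). AT5G16920 had 2149 and 797 in PMII arrays, against 201 and 22.1 in bicellular arrays (4.22 ± 0.72, adjusted p = 0.0393). AT5G13380 and AT5G16920 were also high in wild type PMII, at 3286 and 3295 and at 1564 and 1864.

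Further called increases were smaller. AT1G66250, a glucanase of the glycosyl hydrolase type, had 175 and 113 in PMII arrays, against 20.1 and 19.6 in bicellular arrays (2.70 ± 0.45, adjusted p = 0.0393). The serine carboxypeptidase-like gene scpl29 had 4121 and 1821 in PMII arrays, against 747 and 692 in bicellular arrays (1.93 ± 0.29). RXF26, a GDSL-type lipase, had 423 and 308 in PMII arrays, against 102 and 106 in bicellular arrays (1.77 ± 0.32). ATL8, a RING-type ubiquitin ligase, had 325 and 166 in PMII arrays, against 55.9 and 71.0 in bicellular arrays (1.85 ± 0.31), and its ms35 PMI arrays, at 116 and 175, overlapped the PMII arrays. AT3G23840, a CER26-like protein of the family that extends wax chains, had 329 and 236 in PMII arrays, against 103 and 66.5 in bicellular arrays (1.72 ± 0.29). AT3G04360, like RXF26 and ATL8, was higher in PMI than in bicellular arrays: it had 37.5 and 24.1 in PMII arrays and 1.1 and 1.3 in bicellular arrays (3.24 ± 0.54), and 22.1 and 22.8 in ms35 PMI arrays. AT4G21780 (3.64), AT3G27230 (1.78) and AT5G57910 (1.65) were the other largest increases. Another 5 single-gene increases lay between 1.11 and 1.45, among them scpl25 (1.18), the calmodulin-like AT2G41410 (1.45) and AT1G12000 (1.17), a subunit of the phosphofructokinase that uses pyrophosphate.

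Among the genes called lower in PMII arrays, the largest decrease of a probe set with a single named gene was that of AT4G30060, with 1.63 and 2.25 in PMII arrays, against 34.8 and 41.7 in bicellular arrays (-3.28 ± 0.49, limma adjusted p = 0.0359). AT3G05150, a sugar transporter of the ERD6-like group, had 1.4 and 4.2 in PMII arrays, against 24.4 and 44.8 in bicellular arrays (-2.87 ± 0.53, adjusted p = 0.0432). Both genes were at the low end of the signal range. CHX19, a cation/proton exchanger, had 37.7 and 115 in PMII arrays, against 444 and 479 in bicellular arrays (-2.76 ± 0.51, adjusted p = 0.0432), and stood higher still, at 2102 and 1230, in PMI arrays. AT3G18360, a protein with a VQ motif, had 107 and 300 in PMII arrays, against 667 and 959 in bicellular arrays (-2.14 ± 0.40, adjusted p = 0.0432). TUB1, a beta-tubulin, had 72.4 and 99.1 in PMII arrays, against 181 and 315 in bicellular arrays (-1.47 ± 0.26, adjusted p = 0.0420). Sugar-related enzymes, named by family only, included AT1G22460, an O-fucosyltransferase-like protein (-2.06), AT4G16745, of the exostosin family of glycosyltransferases (-1.98), and AT3G47800, related to sugar mutarotases (-1.45). AT2G45040, a matrix metalloproteinase, fell by 1.65, AT5G46230, of the DUF538 family like AT1G02813, by 1.84, AT5G38070, a RING-type zinc finger protein, by 1.71 and AT3G10540, a kinase of the PDK1 type, by 1.46 on the log2 scale. AT2G42900 (-2.06), AT4G12130 (-1.42) and AT3G26890 (-1.24) completed the 15 single-gene decreases.

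**Figure D2:**
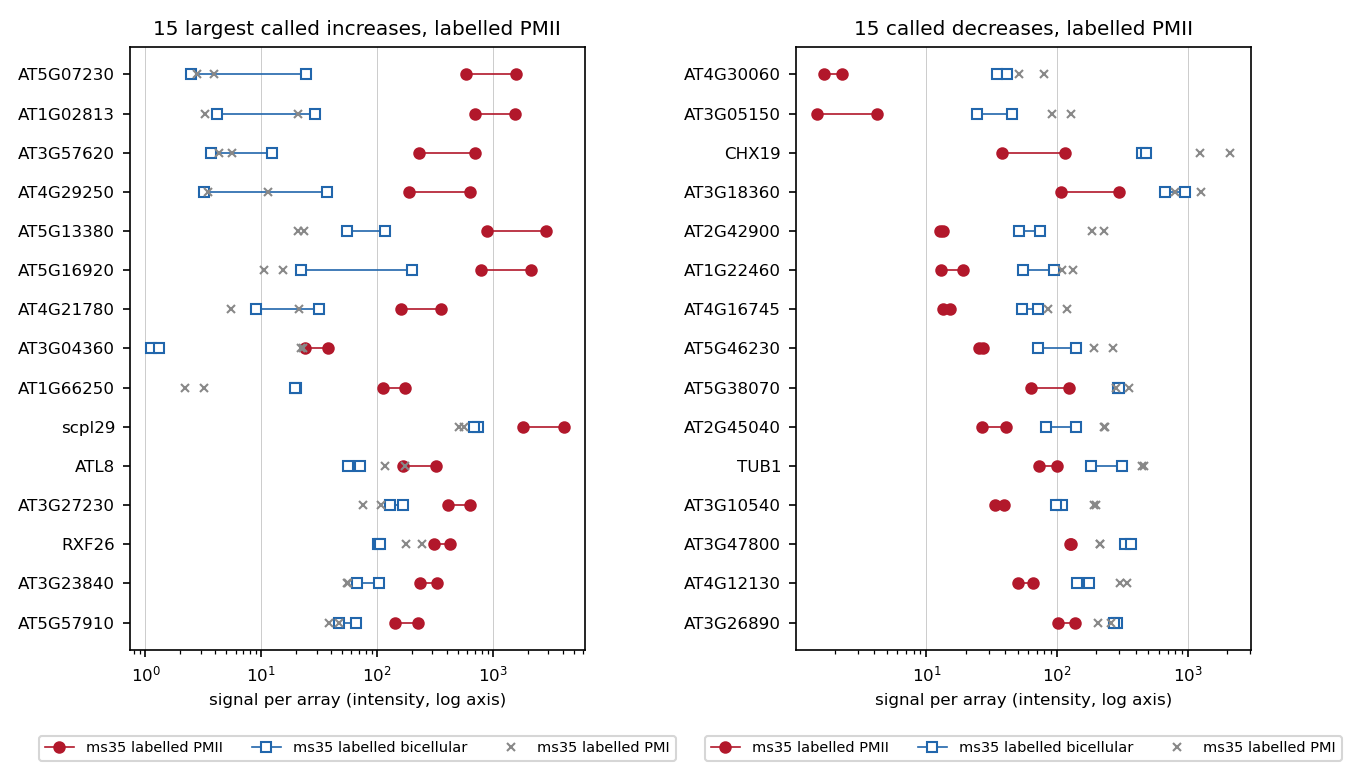
Signal per array on a log axis for the 15 largest called single-gene increases and the 15 called single-gene decreases in ms35 PMII against bicellular arrays, with ms35 PMI arrays as crosses. A line joins the 2 arrays of a group. The PMII and bicellular arrays do not overlap in any of the 30 genes.

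In most of these probe sets the PMI arrays lay on the same side of the PMII arrays as the bicellular arrays did. In 36 of the 38 higher probe sets both ms35 PMI arrays lay below both PMII arrays, while they lay below both bicellular arrays in 15 and above both in 9. In all 30 lower probe sets both PMI arrays lay above both PMII arrays, and in 20 they lay above both bicellular arrays too. The matching shares over all tested probe sets were not counted. The probe sets were also chosen by their PMII values, so these counts only describe them. Within these probe sets the 2 arrays of a label also mostly differed in a shared direction. In the higher probe sets PMII replicate 1 exceeded replicate 2 in 35 of 38, and bicellular replicate 1 exceeded replicate 2 in 30 of 38. In the lower probe sets PMII replicate 1 was under replicate 2 in 26 of 30, and bicellular replicate 1 under replicate 2 in 25 of 30. The matching shares over all tested probe sets were not counted, so a trait of the called probe sets cannot be told from one of the arrays. At gaps over 2 on the log2 scale, replicate 1 was higher in 139 and replicate 2 in 331 for ms35 PMII. For ms35 bicellular these were 268 and 415.

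The largest decreases in size were not called. The 15 single-gene probe sets with the most negative differences among those not called, chosen after their values were seen, had log2 differences from -5.48 to -3.94, with limma adjusted p from 0.0515 to 0.185 and SEs from 0.87 to 1.81. AT1G29140, of the pollen Ole e 1 allergen family, had 0.84 and 177 in PMII arrays, against 401 and 2711 in bicellular arrays (-5.48 ± 1.77, adjusted p = 0.146). AT5G07430, a pectin methylesterase, had 1.39 and 60.5 in PMII arrays, against 106 and 1224 in bicellular arrays (-4.60 ± 1.35, adjusted p = 0.118). AT3G07820, a polygalacturonase, had 13.6 and 225 in PMII arrays, against 498 and 4057 in bicellular arrays (-4.57 ± 1.60, adjusted p = 0.178). These 3 genes belong to families known from pollen, and their PMI arrays were higher again, at 4918 and 5766 for AT1G29140 and at 5074 and 6832 for AT3G07820. AT1G78460, a SOUL-type heme-binding protein, came nearest to a call, with 8.93 and 32.7 in PMII arrays, against 191 and 1035 in bicellular arrays (-4.50 ± 0.87, adjusted p = 0.0515). In all 15 genes both PMII arrays lay below both bicellular arrays, as in 22.2% of all tested probe sets. In all 15, replicate 2 also exceeded replicate 1 in both labels, and both PMI arrays lay above the other 4 ms35 arrays. The matching shares of these 2 orders over all tested probe sets were not counted. The 15 were chosen for large negative differences, so these counts only describe them. Over all tested probe sets, the 2 PMII arrays of ms35 differed by more than 2 on the log2 scale in 470 (2.85%) and its bicellular arrays in 683 (4.15%). The wild type PMII arrays did so in 629 (3.82%) and the wild type bicellular arrays in 318 (1.93%).

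**Figure D3:**
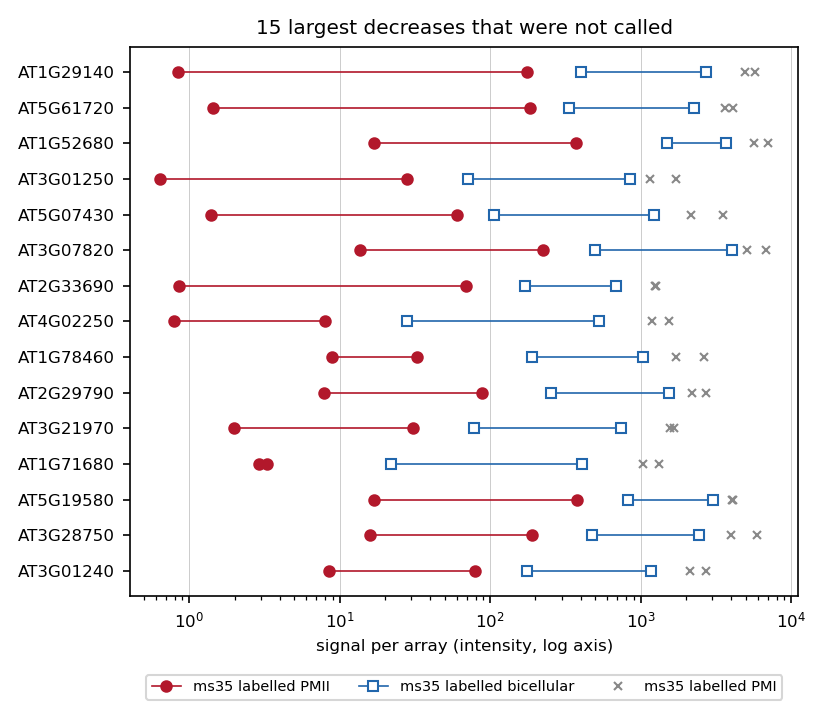
Signal per array on a log axis for the 15 largest single-gene decreases from ms35 PMII against bicellular arrays that were not called, with PMI arrays as crosses and a line joining the 2 arrays of a group. PMII replicate 1 is the lowest array in all 15 genes. The PMII arrays lie widely apart except for AT1G71680 (2.91 and 3.28), and the bicellular arrays also lie apart. The PMI arrays lie closer together than the bicellular arrays.

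Large increases also missed the threshold. The 15 largest single-gene ones, likewise chosen after their values were seen, ran from 2.78 to 4.54 with limma adjusted p from 0.0534 to 0.194. In all 15 both PMII arrays lay above both bicellular arrays, as in 23.9% of all tested probe sets. They were chosen for large positive differences, so this count only describes them. AT3G20450 had 931 and 371 in PMII arrays, against 119 and 3.09 in bicellular arrays (4.54 ± 1.07, limma adjusted p = 0.0734). LCR66, a small cysteine-rich protein of the defensin type, had 251 and 103 in PMII arrays, against 29.2 and 2.74 in bicellular arrays (3.71 ± 0.87, adjusted p = 0.0734). AT2G41040 had 2344 and 1282 in PMII arrays, against 478 and 76.0 in bicellular arrays (3.16 ± 0.65, adjusted p = 0.0598).

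Gene lists were described by counts and medians, beside a median log2 difference of 0.03 over all tested probe sets. Of 5 tested tapetum and pollen wall genes, 1 was called higher, A9, where 0.231% of all tested probe sets were. All 5 differences were positive, with a median of 1.48. In 3 both PMII arrays lay above both bicellular arrays, as in 23.9% of all tested probe sets. By limma 3 had an unadjusted p under 0.05, where 16.2% of all tested probe sets did. These are the same 5 genes that were set against the stage names above, so this is no separate result. SHT, a tapetal acyltransferase of spermidine, had 5361 and 2799 in PMII arrays, against 1396 and 517 in bicellular arrays (2.18 ± 0.55, limma adjusted p = 0.0866). AT5G62080, a lipid transfer family protein, had 733 and 770, against 442 and 161 (1.48 ± 0.37, adjusted p = 0.0841). AMS, a basic helix-loop-helix regulator of the tapetum, had 122 and 71.9, against 74.6 and 53.3 (0.55 ± 0.41), and the sugar transporter SWEET8 had 3440 and 2663, against 2927 and 2281 (0.23 ± 0.26). For A9 the log2 difference was 5.19 without ms35 bicellular replicate 2 and 5.73 without ms35 PMII replicate 1.

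None of the 15 tested late pollen genes was called by limma (5 at an unadjusted p under 0.05), and 14 of the 15 differences were negative, with a median of -1.06. In 6 the PMII arrays lay below both bicellular arrays, as in 22.2% of all tested probe sets, of which 16.2% had an unadjusted p under 0.05. AGL30, a MADS-domain factor of pollen, had 1.95 and 20.9 in PMII arrays, against 64.7 and 103 in bicellular arrays (-3.09 ± 0.66, adjusted p = 0.0652). Its partners AGL104 (-1.84 ± 0.37, adjusted p = 0.0572) and AGL66 (-1.17 ± 0.31, adjusted p = 0.0899) had 45.6 and 92.8, against 196 and 292, and 36.1 and 79.3, against 120 and 128. AtVEX1, a marker of the vegetative cell, had 37.4 and 32.6 in PMII arrays, against 59.2 and 650 in bicellular arrays (-2.43 ± 0.78, adjusted p = 0.146). MGH3, a male germline histone and the tested gene of the sperm cell list, had 20.4 and 81.5 in PMII arrays, against 156 and 274 in bicellular arrays (-2.27 ± 0.52, adjusted p = 0.0731). The late pollen median was -0.32 without ms35 bicellular replicate 2 and -0.68 without ms35 PMII replicate 1. It was -1.40 with 5 called lower without ms35 bicellular replicate 1, and -1.44 with 3 called lower without ms35 PMII replicate 2.

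Photosynthesis genes were all positive and none was called. The 5 tested had a median of 0.76 (limma; 3 at an unadjusted p under 0.05), and without ms35 bicellular replicate 1 the median was 1.15. Without ms35 bicellular replicate 2 the log2 difference went from 0.76 to 0.37 for LHCB4.1 and from 0.52 to 0.014 for RCA, the 2 brightest of the 5. LHCB4.1, a light-harvesting protein, had 1994 and 1733 in PMII arrays, against 1433 and 838 in bicellular arrays (0.76 ± 0.28, adjusted p = 0.199). The 67 tested genes of the plastid genome had a median of 0.08 and none was called (2 at an unadjusted p under 0.05).

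Secondary wall genes showed no called difference between the ms35 labels. None of the 4 tested was called by limma (0 at an unadjusted p under 0.05), with a median of -0.11, against -2.07 for the same step in wild type. IRX15-L, a xylan synthesis gene, had 1.75 and 13.6 in ms35 PMII arrays and 16.1 and 1.08 in ms35 bicellular arrays, whereas wild type had 94.6 and 64.3 in PMII and 392 and 440 in bicellular arrays. HCT, of lignin synthesis, had 132 and 116 in ms35 PMII arrays and 155 and 161 in ms35 bicellular arrays (-0.35 ± 0.25, adjusted p = 0.545). The difference of the ms35 step from the wild type step was not called for these genes by limma (adjusted p = 0.725 for IRX15-L and 0.360 for HCT).

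Few calls fell on other groups. Of the 16 genes on the cuticle list only 2 were tested. AT3G23840, given above, was called higher, where 0.231% of all tested probe sets were, and the other had a log2 difference of 0.02. UGT78D2, a glucosyltransferase of flavonoids, had 138 and 113 in PMII arrays, against 52.8 and 44.3 in bicellular arrays (1.33 ± 0.28, limma adjusted p = 0.0633). Of the auxin genes none of 4 was called (1 at an unadjusted p under 0.05). GH3.3, which conjugates auxin, had 2353 and 1614 in PMII arrays, against 1307 and 442 in bicellular arrays (1.36 ± 0.61, adjusted p = 0.298). No call fell on the 10 tested expansins, 4 xyloglucan endotransglucosylases, 9 endoglucanases, 16 TBL acetyltransferases, 24 UGT glycosyltransferases, 6 cytochromes P450 or 4 WRKY genes. Unadjusted p under 0.05 was seen in 0, 1, 3, 3, 5, 0 and 1 of them, in that order. Of the 7 genes on the carpel and perianth list 2 were tested, INO (0.03 ± 0.77) and SPT (0.13 ± 0.33), and neither was called. INO was dim, at 19.0 and 13.6 in PMII and 33.1 and 6.9 in bicellular arrays. These 2 genes cannot assess the presence of carpel or perianth tissue.

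Most of the called differences of ms35 had the same direction in wild type. In wild type the step was positive for 38 of the 38 higher probe sets and negative for 27 of the 30 lower ones. The wild type arrays did not overlap in the same direction in 34 and 24 of these, where both wild type PMII arrays lay above both bicellular arrays in 26.1% and below them in 21.2% of all tested probe sets. In 22 of the 68 the wild type step was called the same way, where limma called 256 (1.55%) of all tested probe sets for that step in either direction. Both steps were tested with the same estimate of spread for each probe set. Probe sets called in ms35 are partly chosen for a small spread, so the calls of the genotypes are not independent. The median log2 difference was 1.92 in ms35 and 1.29 in wild type for the higher probe sets, and -1.85 in ms35 and -1.02 in wild type for the lower ones. The smaller size in wild type, seen in 38 and 28 probe sets, is of probe sets chosen for a large difference in ms35. Across all tested probe sets the ms35 and wild type steps, which share no arrays, correlated with r = 0.40 (rho = 0.33) over probe sets, which are not independent replicates.

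**Figure D4:**
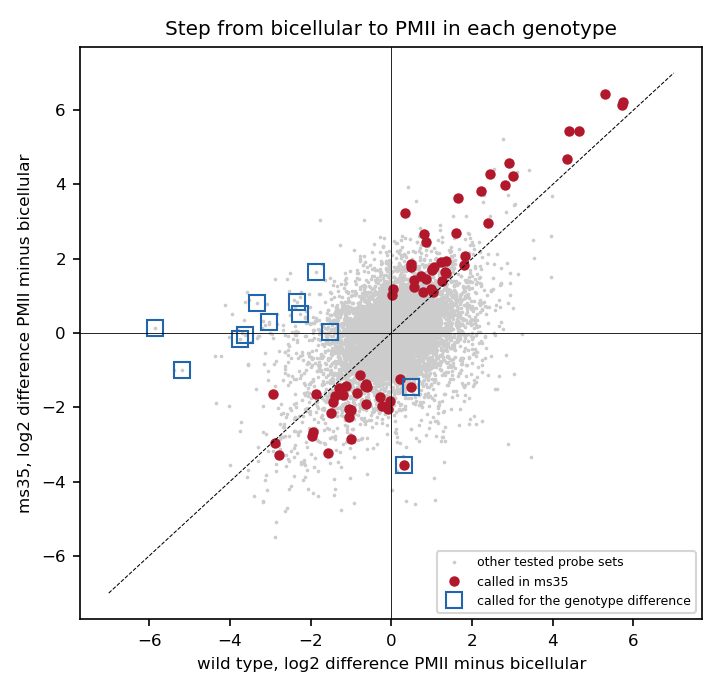
Log2 difference of PMII minus bicellular in ms35 (vertical axis) against the same in wild type (horizontal axis) for each tested probe set, with the 68 probe sets called in ms35 as filled circles and the 12 called for the genotype difference as open squares. The dashed line marks equal steps. Most circles lie in the quadrants where both steps have the same sign, and 10 squares lie between -1.01 and 1.64 in ms35 and at or below -1.53 in wild type.

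The step itself differed between ms35 and wild type in 12 probe sets (0.0729%) by limma, 10 with a more positive and 2 with a more negative step in ms35, and 1129 passed at an unadjusted p under 0.05. In all 10 the wild type PMII arrays lay below the wild type bicellular arrays, as in 21.2% of all tested probe sets. In these 10 all 4 ms35 arrays lay below both wild type bicellular arrays, and the share over all tested probe sets was not counted. The same values entered the test that chose the 10, so both counts only describe them. Their ms35 steps ran from -1.01 to 1.64 and their wild type steps from -5.86 to -1.53. A single gene was annotated to 3 of the 12. AT1G75280, an isoflavone reductase-like protein, had 176 and 155 in ms35 PMII and 92.0 and 144 in ms35 bicellular arrays, against 94.0 and 93.8 in wild type PMII and 447 and 468 in wild type bicellular arrays (difference of steps 2.77 ± 0.36, adjusted p = 0.0156). ACLA-2, a subunit of the ATP citrate lyase that makes acetyl-CoA in the cytosol, had 222 and 226 in ms35 PMII and 218 and 222 in ms35 bicellular arrays, against 234 and 196 in wild type PMII and 602 and 639 in wild type bicellular arrays (1.55 ± 0.24, adjusted p = 0.0488). In ms35 neither gene was called between the labels (log2 differences of 0.51 and 0.03), and both were highest in wild type bicellular arrays among the PMII and bicellular arrays. AT3G47800, the mutarotase-like gene, was opposite, with 126 and 127 in ms35 PMII and 331 and 366 in ms35 bicellular arrays, against 229 and 213 in wild type PMII and 179 and 135 in wild type bicellular arrays (-1.95 ± 0.30, adjusted p = 0.0388). Leaving out wild type bicellular replicate 2 gave 0 calls by limma (684 at an unadjusted p under 0.05). Leaving out wild type PMII replicate 1 gave 19 and leaving out replicate 2 gave 2, and the count was 5 without either ms35 PMII replicate 1 or ms35 bicellular replicate 2, and 20 without ms35 bicellular replicate 1.

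**Figure D5:**
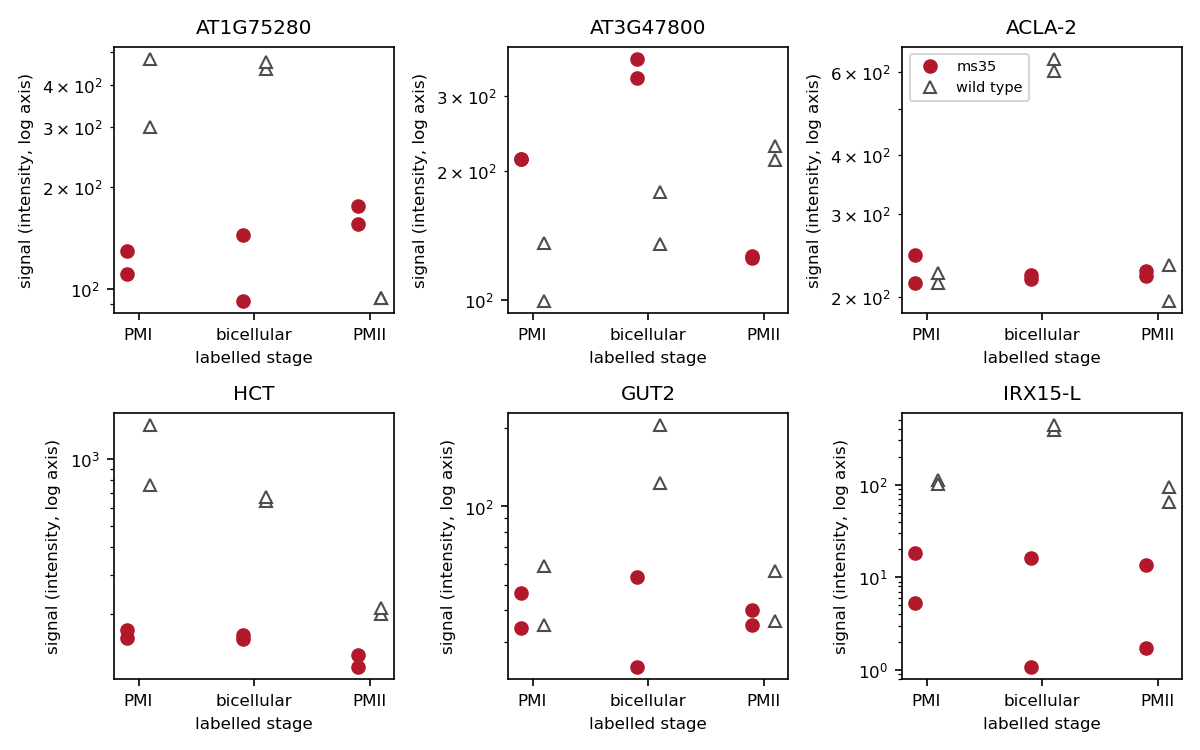
Signal per array on a log axis for the 3 single-gene probe sets whose PMII minus bicellular difference differed between genotypes, and for HCT, GUT2 and IRX15-L, by labelled stage, with ms35 left of wild type. ACLA-2, HCT and IRX15-L are high in the wild type bicellular arrays and stay below them in all ms35 arrays.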

How the data were processed

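RNA was measured on 12 ATH1 arrays, 2 in each of 6 groups. The deposited values are intensity, a signal per probe set on a linear scale, made by the authors with MAS5 and GCOS per the submitters' processing notes (versions not given in the sources used here). Each array had a trimmed mean that was about equal to the others, and detection calls were not used. Precision is limited by the number of arrays.

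Of 22810 probe sets, 64 controls were left out. Values were taken as log2(signal + 2.23), where the added constant is the 10th percentile over all arrays. Probe sets above 25.5, the 40th percentile, on at least 2 arrays were tested: 16464 of 22746. Names came from the platform annotation, updated to a TAIR10.1 gene table: 13513 probe sets had 1 gene, 503 several and 8730 none, and 13436 matched that table. Group means of all 12 arrays were fitted with limma 3.58.1 in R 4.3.3 (statmod 1.5.0), with an intensity trend, 6 residual degrees of freedom and Benjamini-Hochberg adjustment at 0.05. The fit was also run on simulated data with independent noise for each probe set and array. Shifts shared by many genes of an array were not simulated, so that run does not bear on the dependence on single arrays.

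Named genes were the 15 largest increases and 15 decreases among called single-gene probe sets whose groups did not overlap, up to 4 called members of each list or else 2 as values, and the smallest p for the genotype difference; the text also gives further list members. A gene family among those examined is not reported here. Where a gene on a list had several probe sets, the one with the highest mean stood for it. The members, lists and tests were chosen with earlier results of these data known. The alternatives were quantile and median scaling, other pseudocounts, filters and variance models, array weights, a replicate block, a minimum fold of 2 and leaving out each array; leaving out wild type and PMI arrays for the ms35 comparison was chosen after seeing the data.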

Additional observations from a re-analysis of the deposited data

Results flagged for a closer look

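The step from bicellular to PMII differed between ms35 and wild type in 12 probe sets by the test of the difference itself (limma, adjusted over all tested probe sets). Given as the ms35 step minus the wild type step on the log2 scale, the named ones were AT1G75280 at 2.77, AT3G47800 at -1.95 and ACLA-2 at 1.55. The others had no named gene and are given by probe set. The largest was 257896_at, at 6.00, with 1.47 and 1.93 in ms35 PMII and 1.96 and 0.80 in ms35 bicellular arrays, against 18.15 and 11.4 in wild type PMII and 776 and 1197 in wild type bicellular arrays. The differences were 4.19 for 267094_at, 4.13 for 250322_at, 3.58 for 246425_at, 3.57 for 256186_at, 3.52 for 259149_at, 3.34 for 266221_at and 3.19 for 245101_at. The negative one was 249468_at, at -3.86, with 2.09 and 4.50 in ms35 PMII and 47.5 and 77.1 in ms35 bicellular arrays, against 116 and 176 in wild type PMII and 158 and 82.8 in wild type bicellular arrays. With 2 arrays a group, single outlying arrays could not be tested for.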

How the results depend on the processing

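With 2 arrays a group, the counts depended on the variance model and on single arrays. For ms35 PMII against bicellular, 68 probe sets were called. The count was 33 with a pseudocount of 1, 255 with 16, 37 with no filter, 39 with a stricter filter, 17 without the variance trend, 113 with robust variances, 3 with array weights and 0 from the arrays compared alone (limma; 2224 at an unadjusted p under 0.05). Leaving out 1 array at a time gave 0 to 579. Quantile normalization (78), median centring (71) and a minimum fold of 2 (68) stayed within 1.5 times. All tested members of the 68 kept their direction under every alternative run, and 3 were called in at least 20 of 23: A9, 249468_at and 256662_at. Most alternatives leave the ms35 means unchanged or drop 1 array from groups that do not overlap. The kept direction is therefore no measure of stability. For the difference of the ms35 step from the wild type step, 12 were called, 30 with a pseudocount of 16, 0 by limma with no variance trend (1087 had an unadjusted p under 0.05) and 0 to 20 with 1 array left out. With the replicate number as a block the counts were 181, all 68 included, and 8; deviations of same-numbered ms35 PMII and bicellular arrays correlated at 0.15, and the labels do not say that the numbers pair samples. The cause of these shifts was not tested. Over the named genes and their alternatives, 1454 values kept their side of the threshold, 19 passed it, 384 fell short of it and 25 changed sign. All 25 were of 17 list genes that were not called, no such value was called, and none of the 33 called results changed sign. For the called ms35 steps among these, whose groups do not overlap, a change of sign was largely precluded. The sign changed for INO with a pseudocount of 16 (-0.060) and for atpB with quantile normalization (0.081). With 1 array left out, the log2 difference spanned 0 for ACT11 (-0.71 to 0.0052), AT1G75880 (-0.14 to 0.0088), ATHSP22.0 (-0.35 to 0.93), CYP71B6 (-0.19 to 0.037), EXPA15 (-0.064 to 0.75), EXPA4 (-0.55 to 0.24), GUT2 (-0.50 to 0.59) and INO (-0.95 to 1.00). It also did for NAC014 (-1.05 to 1.83), OPCL1 (-0.17 to 0.30), PGY1 (-0.20 to 0.11), PME61 (-0.077 to 0.19), SBT5.4 (-0.025 to 0.38), SWEET14 (-0.0054 to 0.86), WES1 (-0.28 to 0.48) and XTH33 (-1.98 to 0.016). Signal over background limits the dim genes: in 10 higher probe sets both bicellular arrays, and in 8 lower ones both PMII arrays, lay under the low-signal limit.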

Other observations

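Among the called probe sets with no named gene, 18 were higher and 15 lower in ms35 PMII than in ms35 bicellular arrays. The largest increase was 256662_at, with 413 and 130 in PMII arrays, against 1.3 and 0.94 in bicellular arrays (log2 difference 6.13 ± 0.72, limma adjusted p = 0.0108; wild type 5.71). It was among the called probe sets with the smallest adjusted p, beside A9 and 249468_at. The brightest of these increases was 252035_at, chosen after its values were seen, with 4099 and 1977 in PMII arrays, against 448 and 88.4 in bicellular arrays (3.82 ± 0.70, adjusted p = 0.0432).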
